A study of Mus musculus with 12 samples.

Results

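Transcripts of 9 genes, called the 9 enzymes here, were examined in mouse adrenal glands. They encode enzymes or enzyme subunits of the branches that lead from farnesyl diphosphate to products other than sterols. The genes were taken by symbol from the authors' deposited table of 24421 genes, in which all 9 were found: Ggps1, Pdss1, Pdss2, Coq2, Dhdds, Fnta, Fntb, Pggt1b and Icmt. None of them reached a 1.2-fold difference between Abcg1 cKO adrenals and the combined control and Abca1 cKO adrenals. Of the 14305 genes with a mean normalized count of at least 10, 22.6% did, and 15.5% of those with means in the range of the 9. Each of 20 enzymes of the mevalonate route and the sterol branch also did, but that list was chosen with earlier results of these data known.

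RNA of whole adrenal glands, cleaned of adherent fat, from 2-month-old females on a mixed sv129-C57BL/6 background was sequenced as polyA-selected, stranded libraries. There were 4 Abcg1 cKO libraries with a Cre allele and conditional Abcg1 alleles, 4 Abca1 cKO libraries with a Cre allele and conditional Abca1 alleles, and 4 control libraries. The submitters describe these controls as having Cre and nothing else, while the methods, for the study's mice in general, also allow littermates with 1 conditional allele as controls. Cre was expressed from the aldosterone synthase (Cyp11b2) locus, and the medulla, vessels and capsule of a whole gland are not targeted by it. Recombination removes exon 3 of Abcg1 and exons 46 and 47 of Abca1.

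Values are group averages of normalized counts (reads per gene divided by size factors) as the authors deposited them, over 4 Abcg1 cKO libraries and over the 8 other libraries combined. Columns of single libraries could not be tied to a sample and were left aside. No spread between animals, no error and no test is therefore given for any value, and control and Abca1 cKO glands were not separated. The authors' own p-values were not used. Every difference is a description of 2 means. The normalized means summed to 18889571 in Abcg1 cKO against 18311615 in the combined libraries, and how many reads each library had is unknown. Abcg1 itself was at 249.7 in Abcg1 cKO against 305.4 in the combined libraries, counted over the whole gene, most of which Cre leaves in place, and Abca1 at 10057 and 7791, the latter including the Abca1 cKO libraries. Cortex markers were abundant, with Star at 507891 and 374521. In bulk tissue, fewer cells of a type and less RNA per cell cannot be told apart.

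The mevalonate pathway builds isoprene units into farnesyl diphosphate, which stands at a branch point. Squalene synthase (Fdft1) commits it to cholesterol, which the adrenal cortex needs for steroids. The other branches make geranylgeranyl diphosphate, the polyprenyl tail of ubiquinone (the electron carrier of the mitochondrial respiratory chain), dolichol (the lipid carrier of N-glycosylation) and the farnesyl and geranylgeranyl anchors of proteins such as small GTPases. Sterol synthesis genes are controlled by SREBP2, which binds sterol regulatory elements and acts with the CCAAT-binding factor NF-Y.

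Promoter windows of the RefSeq table (GRCm38.p6, the build also called mm10) run from 250 bases before to 50 bases after an annotated start, and 7 of the 9 genes were matched. Fnta and Pggt1b were not matched. Windows were searched on both strands for the sterol regulatory element TCACNCCAC, the CCAAT box CCAAT and the nuclear respiratory factor 1 motif (GCGC on either side of any 2 bases), where N is any base. The CCAAT box does not fall within either other motif. The 250 bases before the start are shown for both members with a CCAAT box (Ggps1 and Dhdds), for the member with the highest ratio (Coq2), and for a pair of mevalonate genes for contrast (Hmgcs1, the only one of 15 such genes with a window to hold a sterol regulatory element, and Idi1), each 5′ to 3′ on the gene's strand with every match in capitals. In this orientation ATTGG is a CCAAT box on the opposite strand.
Ggps1, chr13:14063489-14063738, minus strand: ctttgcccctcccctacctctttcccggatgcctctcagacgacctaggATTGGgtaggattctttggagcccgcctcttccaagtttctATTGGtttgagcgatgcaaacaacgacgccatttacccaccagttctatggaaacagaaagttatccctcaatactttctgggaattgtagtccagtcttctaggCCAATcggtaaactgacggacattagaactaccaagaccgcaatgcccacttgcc
Dhdds, chr4:134000883-134001132, minus strand: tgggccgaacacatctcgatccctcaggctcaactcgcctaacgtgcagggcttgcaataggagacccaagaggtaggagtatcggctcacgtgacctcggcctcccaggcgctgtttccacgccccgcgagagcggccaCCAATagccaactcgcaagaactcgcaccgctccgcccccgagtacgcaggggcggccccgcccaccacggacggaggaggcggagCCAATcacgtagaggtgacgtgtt
Coq2, chr5:100674257-100674506, minus strand: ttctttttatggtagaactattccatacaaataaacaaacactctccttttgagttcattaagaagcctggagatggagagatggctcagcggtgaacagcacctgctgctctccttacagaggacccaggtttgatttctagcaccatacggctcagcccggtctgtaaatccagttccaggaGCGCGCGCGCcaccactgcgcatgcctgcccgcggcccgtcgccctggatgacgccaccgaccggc
Idi1, chr13:8885356-8885605, plus strand: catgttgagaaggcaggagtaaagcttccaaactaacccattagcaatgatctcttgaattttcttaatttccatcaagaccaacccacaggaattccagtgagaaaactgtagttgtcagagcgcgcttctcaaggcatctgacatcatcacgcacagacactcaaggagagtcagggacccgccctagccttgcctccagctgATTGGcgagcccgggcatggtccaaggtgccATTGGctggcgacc
Hmgcs1, chr13:119690101-119690350, plus strand: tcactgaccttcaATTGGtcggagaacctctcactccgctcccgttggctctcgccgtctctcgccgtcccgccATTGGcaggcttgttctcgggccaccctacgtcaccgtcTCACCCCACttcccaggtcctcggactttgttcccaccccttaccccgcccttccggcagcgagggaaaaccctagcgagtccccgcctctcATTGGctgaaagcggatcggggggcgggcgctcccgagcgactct

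Ggps1 held 3 CCAAT boxes, centred 199, 158 and 53 bases before its start, and Dhdds held 2, at 108 and 22 bases. Pdss1, Pdss2 and Fntb held none of the 3 motifs. Coq2 and Icmt each held 1 nuclear respiratory factor 1 motif and no CCAAT box, and the Coq2 match is an alternating run of G and C. No member held the sterol regulatory element, which was in 1.24% of all 32851 promoters and 1.44% of all 27025 genes in the table. It was in only 1 of 15 mevalonate and sterol genes with a promoter (6.67%). With so rare a motif, its absence from 7 promoters does not set the members apart. The CCAAT box was in 2 of the 7 members with a promoter (28.6%) and in 14 of 15 mevalonate and sterol genes with one (93.3%), against 41.1% of all 27025 genes in the table. The nuclear respiratory factor 1 motif was in 2 of 7 members (28.6%), in 2 of 15 mevalonate and sterol genes (13.3%) and in 7.0% of all genes, or 14.1% of the 10802 genes of the table with a mean normalized count of at least 10. A gene with several promoters counted once if any held the motif. Some windows do not sit at the outermost start: against GENCODE M21 gene spans, the start used was 268 bases inside the gene for Icmt, 884 for Coq2 and 36 for Dhdds, and for Fntb it lay far inside a span that GENCODE extends upstream. Both nuclear respiratory factor 1 matches among the members, in Coq2 and Icmt, thus lie inside the annotated genes, as does the Dhdds CCAAT box at 22 bases. Coq2, Icmt and Fntb held no CCAAT box, but their windows leave out the bases before the outermost annotated start. Where the windows of the mevalonate and sterol genes sit in their genes is not given here. The shares of the CCAAT box in the lists may therefore not rest on like windows. A match is a description of letters and not a measured site.

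**Figure D1:**
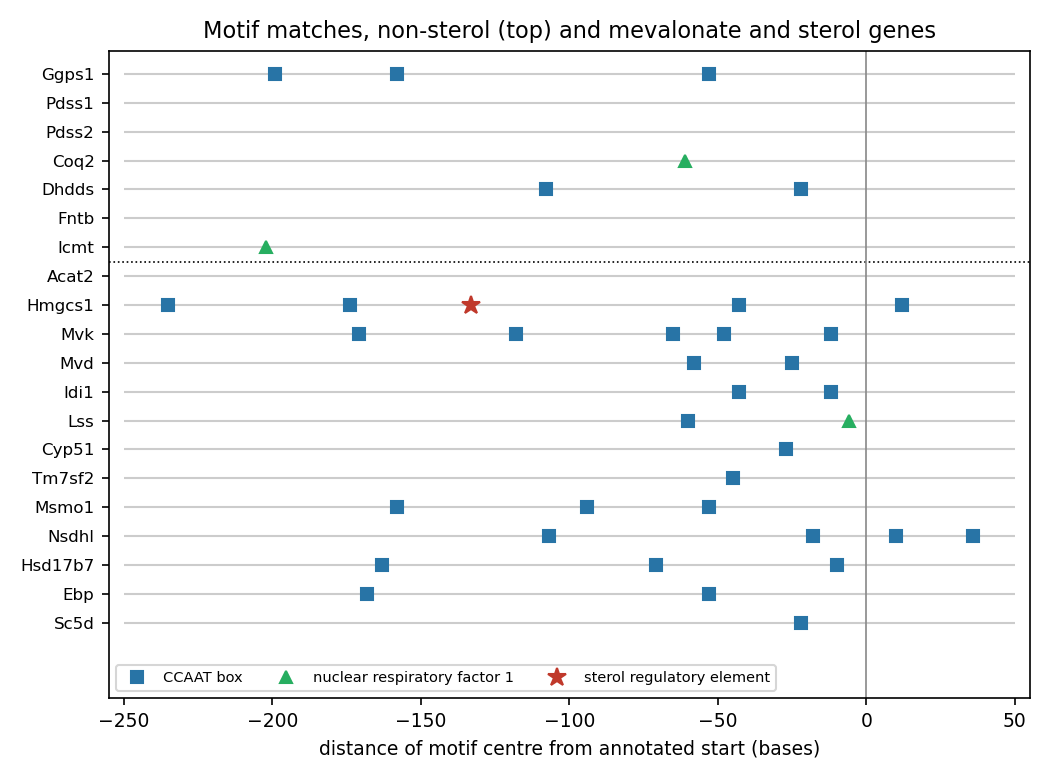
Positions of motif matches relative to the annotated start (x axis, bases) for 7 non-sterol enzymes above the dotted line and for mevalonate and sterol genes with 1 promoter below it. Squares are CCAAT boxes, triangles nuclear respiratory factor 1 motifs and the star a sterol regulatory element; squares mark every gene below the line but Acat2, and above it Ggps1 and Dhdds only.

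Across the 9 genes, 6 had a higher and 3 a lower mean in Abcg1 cKO adrenals, and the ratios of means ran from 0.945 for Pdss1 to 1.13 for Coq2. Over all genes with a mean normalized count of at least 10, 7192 had a higher and 7113 a lower mean. None of the 9 passed a fold of 1.2, against 22.6% of the 14305 genes with a mean normalized count of at least 10 (10.4% higher and 12.2% lower). Of the 9467 genes whose mean lay in the range of these 9, from 102.3 to 2263, 15.5% passed the same fold (8.13% higher and 7.36% lower). A ratio further from 1 than that of any of the 9 was found in 36.6% of all measured genes and in 29.2% of those in the same range of means. The median log2 ratio of the 9 genes, with a pseudocount of 1 added to each mean, was 0.08, beside 0.0013 for all measured genes.

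**Figure D2:**
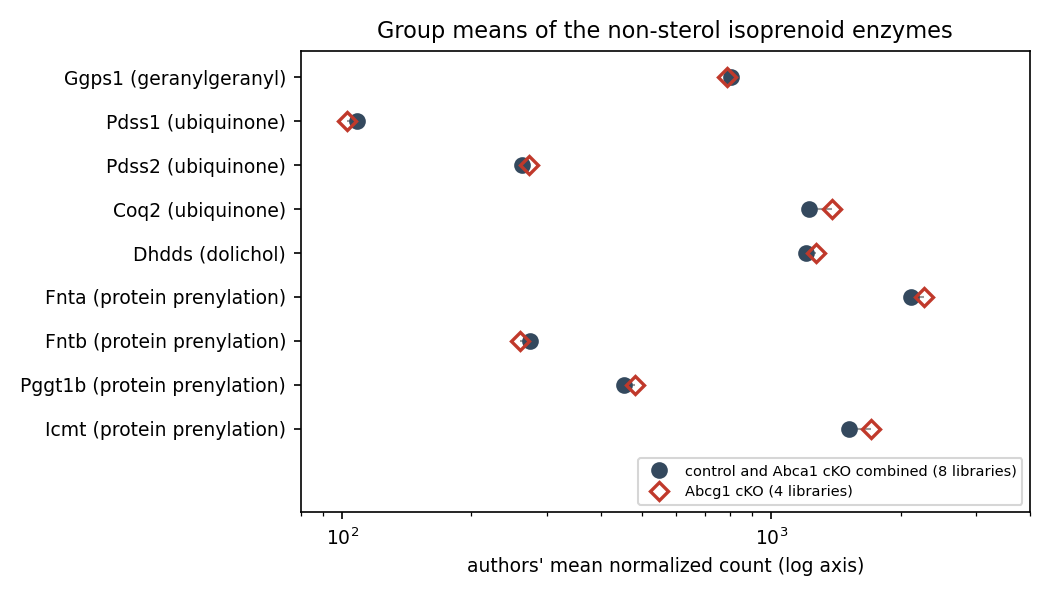
Authors' mean normalized count (log axis) of the 9 enzymes in the combined control and Abca1 cKO libraries (filled circles, 8 libraries) and in Abcg1 cKO (open diamonds, 4 libraries), with no error available. The symbols lie close together for each gene, and the widest gaps are those of Coq2 (1225 against 1382) and Icmt (1513 against 1706).

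Ggps1 makes geranylgeranyl diphosphate from farnesyl diphosphate, the substrate of the geranylgeranyl transferases. It lies on chromosome 13 of GRCm38 from 14050659 to 14063488 on the minus strand, with 4 exons in its longest annotated transcript. Its mean normalized count was 787.2 in Abcg1 cKO against 804.0 in the combined libraries, a ratio of 0.979 (log2 ratio -0.03). This was the smallest shift among the 9 genes, and 13.8% of measured genes had a smaller one.

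Pdss1 and Pdss2 encode the subunits of the synthase that builds the polyprenyl tail of ubiquinone, and Coq2 joins this tail to the ring precursor. Pdss1 (chromosome 2, 22895522 to 22940266, plus strand, 11 exons) was at 102.3 in Abcg1 cKO against 108.3 in the combined libraries, the lowest means of the 9. Pdss2 (chromosome 10, 43221486 to 43464882, plus strand, 8 exons) was at 273.0 and 262.6. The means of the partner subunits thus differed in opposite directions, by -5.47% for Pdss1 and by 3.95% for Pdss2. Both shifts were small, as only 35.5% and 25.1% of measured genes had a smaller one. Coq2 (chromosome 5, 100654723 to 100675140, minus strand, 7 exons) was at 1382 in Abcg1 cKO against 1225 in the combined libraries, a log2 ratio of 0.17 and the largest of the 9. Of all measured genes, 63.4% had a log2 ratio closer to 0 than this. Pdss1 shares 207 exonic bases with A130006I12Rik and 194 with Abi1, both annotated on the opposite strand, and no source used here gives whether the counting used strand.

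Dhdds encodes the catalytic subunit of the enzyme that makes the long polyprenyl chain of dolichol. It lies on chromosome 4 from 133969028 to 134000918 on the minus strand, with 9 exons. Its mean was 1272 in Abcg1 cKO against 1203 in the combined libraries, a log2 ratio of 0.08. Nus1, its partner subunit, was named here after its values were seen: its mean was 2001 in Abcg1 cKO against 1738 in the combined libraries, a ratio of 1.15. Per kilobase of exon, Dhdds stood at 0.909 of the Nus1 level in Abcg1 cKO and at 0.990 in the combined group.

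Fnta is the alpha subunit that protein farnesyltransferase and geranylgeranyl transferase I share, and Fntb and Pggt1b are their respective beta subunits. Fnta (chromosome 8, 25998722 to 26015650, minus strand, 9 exons) had the highest means of the 9 genes, with 2263 in Abcg1 cKO against 2111 in the combined libraries. Fntb (chromosome 12, 76765589 to 76921412, plus strand, 12 exons) was at 259.7 and 273.1, and Pggt1b (chromosome 18, 46235351 to 46280993, minus strand, 9 exons) at 481.9 and 453.6. The farnesyl-specific subunit was thus lower by mean (-4.90%) and the geranylgeranyl-specific one higher (6.23%), both within 1.2-fold. Only 32.1% and 37.7% of measured genes had a smaller shift than these. Icmt, which methylates the carboxyl group of the prenylated cysteine at the end of protein processing, lies on chromosome 4 from 152297227 to 152307121 on the plus strand, with 5 exons. Its mean was 1706 in Abcg1 cKO against 1513 in the combined libraries, a log2 ratio of 0.17 that nearly equalled that of Coq2. Fntb shares 248 exonic bases with Churc1 on the same strand, and Icmt shares 103 with Rnf207 on the opposite strand.

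Levels can be compared between genes only per length, and were divided by the union of annotated exons of each gene. In the combined group the order was Fnta at 1094 normalized counts per kilobase, Coq2 at 702.9, Dhdds at 373.5, Icmt at 307.6, Ggps1 at 183.4, Pdss2 at 110.1, Fntb at 95.5, Pggt1b at 60.7 and Pdss1 at 46.4. The order in Abcg1 cKO adrenals was identical, from 1173 for Fnta to 43.9 for Pdss1, and without a spread between animals it cannot be said which neighbours in it differ. The level of the shared alpha subunit Fnta exceeded that of both beta subunits added together by 7.0-fold in the combined group and 7.55-fold in Abcg1 cKO. Pdss2 exceeded Pdss1 per kilobase by 2.37-fold and 2.61-fold. Coq2 exceeded Pdss2 by 6.38-fold and 6.93-fold. These ratios rest on GENCODE exon lengths, and the exons that the authors counted over may differ.

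**Figure D3:**
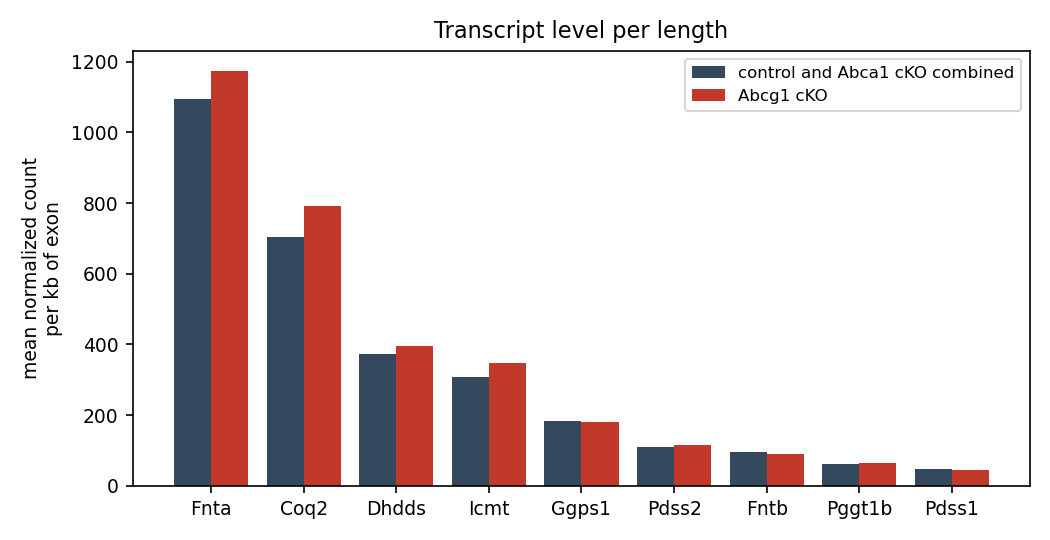
Mean normalized count per kilobase of annotated exon (y axis, from 0) of the 9 enzymes, with 1 bar for the combined control and Abca1 cKO libraries and 1 for Abcg1 cKO, and no error available. Genes are ordered by the combined group, and the Abcg1 cKO bars follow the same order, with Fnta highest (1094 and 1173) and Pdss1 lowest (46.4 and 43.9).

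The enzymes before the branch point and on its sterol side are given for comparison. All 20 genes of a mevalonate and sterol list had a higher mean in Abcg1 cKO and passed a fold of 1.2 (10.4% of all measured genes did so in this direction), with a median log2 ratio of 0.98 over 8 genes from Acat2 to Fdps and 0.70 over 12 genes of the sterol branch. This list was chosen with earlier results known, so its direction is not independent evidence. Fdps, which makes farnesyl diphosphate, was at 6156 in Abcg1 cKO against 2971 in the combined libraries. Fdft1, the first enzyme on the sterol side, was at 1999 and 1238, and Sqle, the squalene epoxidase, at 1283 and 651.0. The smallest ratio of that list, 1.23 for Ebp, lay above the largest of the 9 non-sterol enzymes, 1.13 for Coq2, so the lists did not overlap. Ebp, Hmgcs1 and Idi1 were named after their values were seen, and the difference between the lists was not tested.

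**Figure D4:**
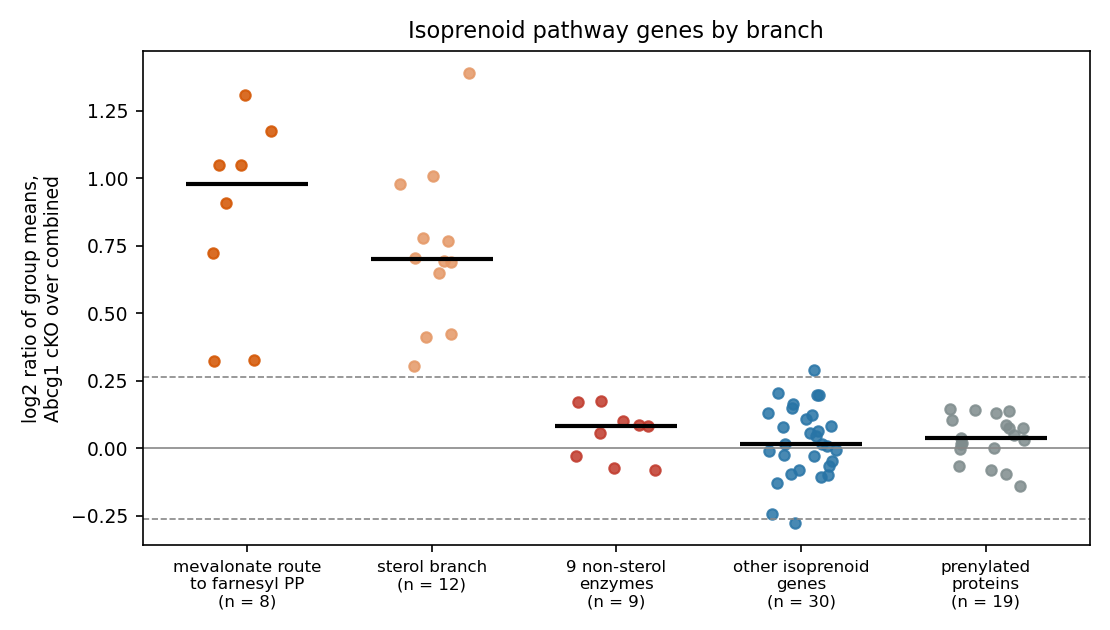
log2 ratio of group means (y axis, pseudocount of 1) between Abcg1 cKO and the combined group, for each gene of 5 groups, with horizontal bars at the medians and dashed lines at a fold of 1.2. Every mevalonate and sterol gene lies above the upper dashed line, and the 9 non-sterol enzymes lie between -0.08 and 0.17.

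To place the sterol branch beside the others, the transcript level of Fdft1 was set against each of the 9 enzymes per kilobase within each group. Fdft1 stood at 1.82 times the level of Ggps1 in the combined group and at 3.01 times in Abcg1 cKO. Relative to Dhdds it stood at 0.896 and 1.37. Relative to Fnta, the most abundant of the 9, it stood at 0.306 and 0.461. The change of this quotient between the groups ran from 1.43-fold for Coq2 to 1.71-fold for Pdss1, and it combines the ratio of Fdft1 with that of each enzyme. Fdft1 itself had a ratio of 1.61 between the groups, above that of every one of the 9 (at most 1.13, for Coq2). The quotient therefore had to rise for all 9, and its direction is no separate result about them. With Fdps in place of Fdft1 the change ran from 1.84-fold for Coq2 to 2.19-fold for Pdss1, and the same holds, as Fdps had a ratio of 2.07.

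**Figure D5:**
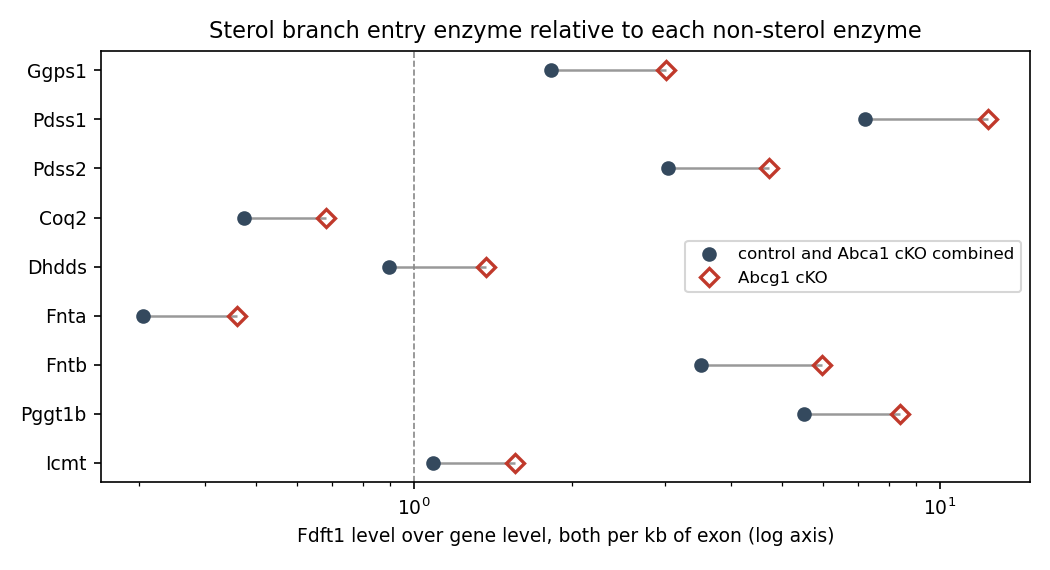
Level of Fdft1 divided by the level of each of the 9 enzymes, both per kilobase of exon (log x axis), in the combined control and Abca1 cKO libraries (filled circles) and in Abcg1 cKO (open diamonds), with no error available. The Abcg1 cKO value lies to the right for every enzyme, as for Ggps1 (1.82 and 3.01), and crosses the dashed line at equal levels for Dhdds. This direction follows from the ratio of Fdft1 itself, which is above that of each of the 9.

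Further genes of the same branches were taken as a list of 30, all of which were measured. Of these, 1 was higher and 1 lower past a fold of 1.2 (6.67% together, against 22.6% of all measured genes), and 28 lay within it. Over all 30, 17 lay above and 13 below a log2 ratio of 0, with a median log2 ratio of 0.02. Dolk, the dolichol kinase, had a mean of 824.3 in Abcg1 cKO against 673.9 in the combined libraries, a ratio of 1.22. Dpm1, the catalytic subunit of dolichol phosphate mannose synthase, was the lower gene, with means of 24.5 and 29.9, which are low values. The other 7 dolichol genes lay within 1.2-fold.

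The 10 further ubiquinone genes, among them the methyltransferases and hydroxylases that modify the ring, had a median log2 ratio of 0.01, from -0.13 to 0.20. Coq10b, a ubiquinone-binding protein, had means of 3144 and 2744. Coq8a, an atypical kinase listed under its older symbol, had means of 2774 and 3030. The 8 further genes of protein prenylation and prenylcysteine processing had a median of 0.03. Pcyox1, which degrades prenylcysteines, had means of 7866 and 7451, and Zmpste24, a protease that processes farnesylated proteins, 2336 and 2209.

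Transcripts that mark other cell types of the gland and its surroundings also differed between the means. Among all measured genes, 10.4% were higher and 12.2% lower past a fold of 1.2 in Abcg1 cKO. All 6 medulla markers were higher past this fold, with a summed mean of 176405 in Abcg1 cKO against 129603. Of 7 adipocyte markers 6 were higher, with sums of 34872 and 15914, and all 4 measured lymphocyte markers of 6 were lower, with sums of 32.0 and 62.3. Of 9 cortex markers 6 were higher and none lower, and no marker of zona glomerulosa, endothelium or fibroblasts passed (3, 4 and 4 genes), while 1 of 4 macrophage markers was lower. The liver marker Alb was at 62.1 and 780.8 and the kidney marker Umod at 0 in both groups. Their part in the ratios of the 9 enzymes was not tested.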

How the data were processed

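RNA sequencing libraries of whole adrenal glands were grouped by their titles into 4 Abcg1 cKO, 4 Abca1 cKO and 4 control. Per the submitters' processing notes and the methods, the authors trimmed reads (cutadapt 4.0), mapped them to mm10 (STAR 2.7.10a), assigned uniquely mapped reads to genes (HTSeq 0.13.5) and normalized the counts with DESeq2 1.38.3. The signal values used are the authors' deposited mean normalized counts of 2 groups. The deposited table also holds 12 columns of single libraries, which match no label, and the authors' fold changes and p-values, and none of these was used. Columns were not assigned to samples by their values, so the planned limma or count-based tests were not run, nor any fit leaving out a library. Protein comparisons were not made.

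Each ratio divides the Abcg1 cKO mean by the combined mean, computed in Python 3.11.15 with pandas 2.3.3. A pseudocount of 1 was added to each mean. Genes needed a mean of at least 10 over all 12 libraries, and called means past a fold of 1.2, the fold part of the study's cutoff, without its p-value part. Exons came from the GENCODE M21 basic annotation (GRCm38). 3 genes were matched by an older symbol. The calculation was tested on simulated data. Members and lists were chosen with earlier results of these data known. Genes named are the 9 enzymes, Abcg1, Abca1, genes flanking the branch point (1 that the rule takes in is not reported here), and of the other isoprenoid genes those past the fold and up to 4 with the largest means. Cell type markers and genes named after their values were seen come on top of these. Alternatives were pseudocounts of 0.1 and 10, minimum means of 0 and 50, folds of 1.1 and 1.5, and centring on the median of all measured genes.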

Additional observations from a re-analysis of the deposited data

How the results depend on the processing

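Pseudocounts of 0.1 and 10 and centring on the median of all measured genes moved no log2 ratio of the 9 enzymes by more than 0.0063, and none changed sign. At a fold of 1.1, 2 of the 9 passed (Coq2 and Icmt), against none at 1.2 or 1.5, while 45.8% of all measured genes passed 1.1. With no filter on low values 2629 genes were higher and 3587 lower past a fold of 1.2, against 1493 and 1745 with a mean of at least 10, and with a mean of at least 50 the lower genes were 1034. The medians of all lists moved by less than 0.1 (log2), a limit set here because no spread between animals was at hand. No paired analysis was possible because single libraries could not be matched to samples. For the same reason control alone, Abca1 cKO alone, left-out libraries and DESeq2 were not run. Raw depth is not known, so counting error could not be given for any mean.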

Other observations

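Transcripts of proteins that receive farnesyl or geranylgeranyl anchors were measured for a list of 19, and none passed a fold of 1.2 between Abcg1 cKO adrenals and the combined control and Abca1 cKO adrenals, against 22.6% of all measured genes. Over all measured genes the median log2 ratio was 0.0013, with 7192 genes above 0 and 7113 below. The 12 geranylgeranylated GTPases had a median log2 ratio of 0.07, with 11 above 0 and 1 below. The 7 farnesylated proteins had a median of -0.0024, with 3 above 0 and 4 below. The ends of the range, named after their values were seen, were Rab1a, a GTPase of transport from the endoplasmic reticulum, with means of 4889 in Abcg1 cKO against 4419 in the combined libraries, and Lmnb1, a nuclear lamin, with 276.5 and 304.8. No test between animals was run for these values.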
